A study of Homo sapiens with 6 samples.

Results

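Genes of the interferon response and of nucleic acid sensing were followed in RNA-seq libraries labelled H1650, a line derived from a human lung adenocarcinoma. The group holds 44 genes, taken by name from the deposited table, which lists 37 of them among 15897 genes in all. By role these are 6 sensors, 3 adaptors or kinases, 6 transcription factors of the IRF and STAT families, 4 interferon receptor chains and 25 genes that interferon induces. DHX58, TMEM173 (also named STING1), IFI27, IFI44L, MX1, OAS2 and OASL are not listed, so no value is given for them.

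A cell recognizes foreign or misplaced RNA and DNA with sensors such as RIG-I, MDA5, cGAS and TLR3. The adaptors MAVS, STING and TRIF carry the signal to the kinase TBK1, and IRF factors then switch on interferon genes. Secreted interferon binds receptors on the same and other cells, and a complex that contains STAT2 and IRF9 turns on a large set of antiviral genes through a promoter motif called the interferon-stimulated response element (ISRE). In epithelial cells many of these genes, including several sensors, are expressed at a low basal level and rise after infection.

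There were 3 libraries labelled control, described as wild type, and 3 labelled shSETD2, in which an shRNA was directed against SETD2, the H3K36 methyltransferase. The methods describe 3 shRNA constructs delivered by lentivirus, but neither they nor the labels say which construct each library carries, or whether the control cells carried a vector. Nothing says that the libraries of a group came from separate cultures, so p-values measure the spread between these libraries, which may be technical. Levels are given as FPKM, fragments scaled by the authors to transcript length and to the number of mapped fragments.

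The groups stood far apart across the transcriptome. The Pearson correlation of log2(FPKM + 1) over all listed genes, a description since genes share their libraries, was 0.985 to 0.991 within groups and 0.756 to 0.761 between them. SETD2 itself was at 17.99, 10.2 and 17.6 FPKM in the control and 8.97, 8.09 and 12.2 in the shSETD2 libraries, so the groups overlapped (log2 fold change -0.58, adjusted p = 0.0641). It passed as lower without control library 2 (-0.83, adjusted p = 6.48e-03) or without shSETD2 library 3 (-0.73, adjusted p = 0.0418). It did not pass without control library 1 or 3 or shSETD2 library 1 or 2 (adjusted p from 0.149 to 0.179). With median ratio scaling the log2 fold change of SETD2 was -0.25 (adjusted p = 0.3765). Every direction below therefore rests on the labels of the libraries. Of 7 lung epithelial markers only NKX2-1 is listed, at 1.44 to 1.80 FPKM in the control libraries and at 0 in every shSETD2 library. For 6 epithelial markers, of which 5 are listed, the summed level was 14.0 to 15.9 FPKM in the control and 401.0 to 453.5 in the shSETD2 libraries. KRT7 was at 0, 0.0375 and 0.0250 FPKM in the control libraries and between 77.0 and 87.1 in the others. KRT8 and KRT18, at control means of 2.86 and 10.04 FPKM, were also higher in the shSETD2 libraries, at means of 93.9 and 254.6. CDH1 and EPCAM went the other way. CDH1 was between 0.860 and 1.52 in the control libraries and at or below 0.0140 in the others. EPCAM was between 0.582 and 0.830 FPKM in the control libraries and between 0.166 and 0.301 in the others. Of markers of other cell types, 2 of 8 immune genes are listed (summed level 1.33 to 1.62 against 1.91 to 2.24 FPKM), 4 of 6 fibroblast genes (4.04 to 4.54 against 0.292 to 0.340) and 0 of 5 endothelial genes. All 6 libraries carry the label H1650, but nothing in these values shows that both groups are the same cells, and a difference between the cells themselves and the effect of the shRNA cannot be told apart in any comparison below. In bulk RNA fewer cells of a type and less RNA per cell cannot be told apart, and the part of these differences in the results below was not tested.

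Most of the listed genes were higher in the shSETD2 libraries. Of the 34 genes with a mean of at least 0.5 FPKM over the 6 libraries, 25 were higher, 6 were lower and 3 did not pass the test (limma on log2(FPKM + 1), adjusted p under 0.05). The background was large, since 78.6% of all 14068 genes tested passed, 26.8% as higher and 51.8% as lower. Among the members tested, 73.5% were higher and 17.6% lower. Their median log2 fold change was 1.02, against -0.29 for all genes tested. For 25 of the 34 the groups did not overlap and the shSETD2 libraries were the higher ones, against 27.9% of all genes tested, and for 6 the control libraries were, against 53.0%. With 3 libraries against 3, an exact permutation test of a single gene cannot give p below 0.1, so the adjusted p-values rest on limma's model across genes.

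Of the 34 genes, 10 had a mean below 0.5 FPKM in the control group and 4 in the shSETD2 group, and these passed the filter only through the group where they are high. Among the 20 genes at or above 0.5 FPKM in both groups, 15 were higher, 2 were lower and 3 did not pass, while 27.1% of all 11603 such genes were higher and 48.2% lower. TLR3, ISG20 and OAS1 are listed but fell below the filter. Scaling each library by the median ratio moved the median of all genes tested from -0.29 to 0.002. Then 28 members were higher and 5 lower, counting a member that was below the main filter. Of all 13956 genes tested with this scaling, 5338 were higher and 5272 lower.

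**Figure D1:**
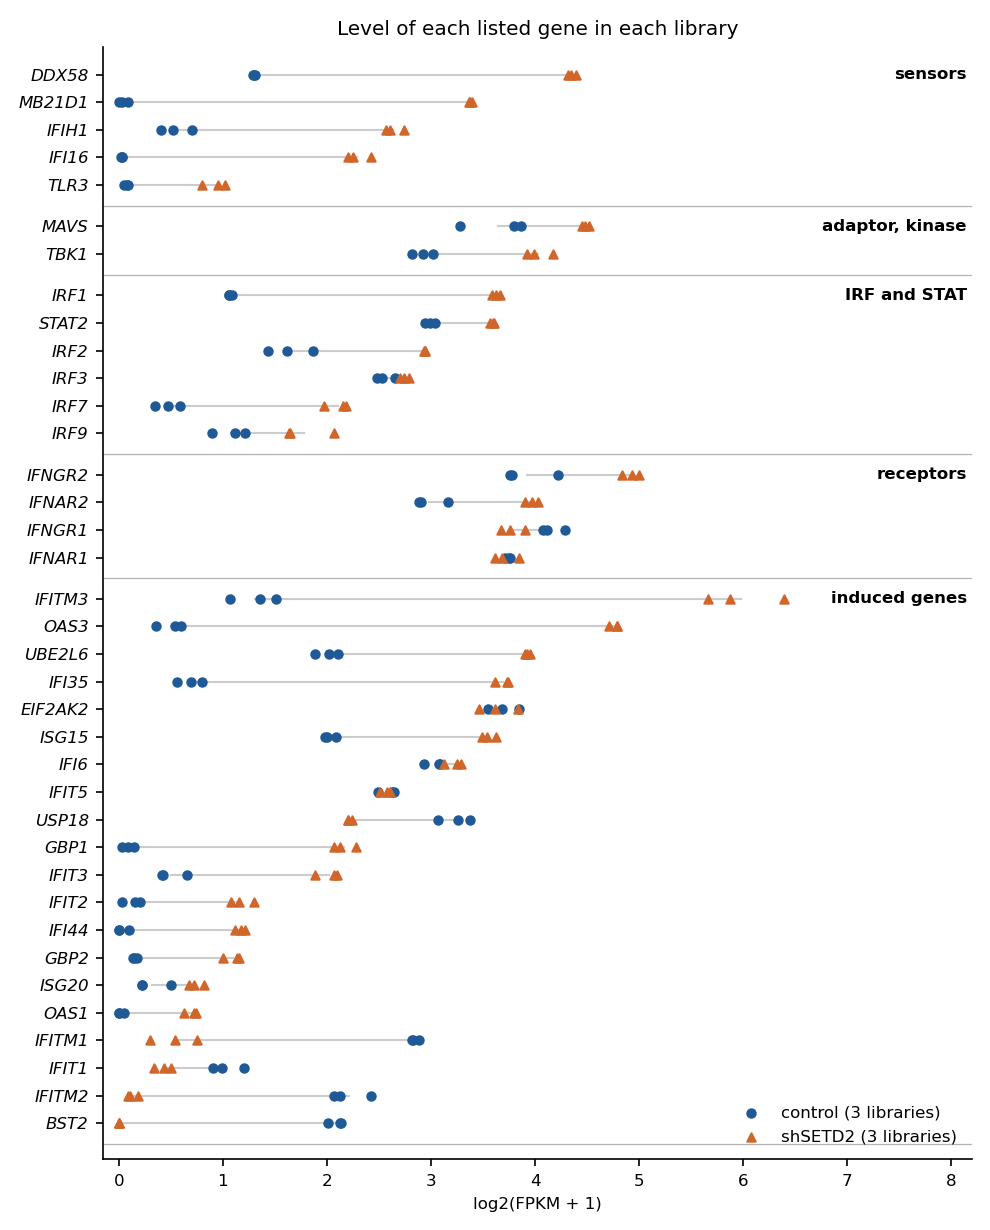
Level of the 37 listed genes in each of the 6 libraries, by role, on a log2(FPKM + 1) axis. Circles are the 3 control and triangles the 3 shSETD2 libraries, and a grey line joins the group means of log2 values taken per library. All 5 listed sensors lie to the right in the shSETD2 libraries, while BST2, IFITM1, IFITM2, IFIT1 and USP18 among the induced genes lie to the left.

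All 4 sensors tested were higher in the shSETD2 libraries, as were 26.8% of all genes tested. Of the 4, IFIH1, MB21D1 and IFI16 had control means below 0.5 FPKM. These passed the filter only through the shSETD2 group, where they are high, so their direction was not open. DDX58 (chromosome 9, 32455703 to 32526322, minus strand, GRCh37), which encodes the RNA helicase RIG-I, had 1.45, 1.47 and 1.47 FPKM in the control and 18.9, 20.03 and 19.3 in the shSETD2 libraries, a 13.3-fold difference of means (log2 fold change 3.05, standard error 0.046, adjusted p = 3.88e-08). IFIH1 (chromosome 2, 163123589 to 163175213, minus strand) encodes MDA5, the related sensor of long RNA duplexes. It was at 0.432, 0.624 and 0.320 FPKM in the control and at 5.10, 5.69 and 4.92 in the shSETD2 libraries (log2 fold change 2.10, standard error 0.095, adjusted p = 2.63e-06). Neither gene had overlapping groups, and every shSETD2 library was above every control library, as for 27.9% of all genes tested. DDX58 varied little within a group.

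The DNA sensors were close to 0 in the control libraries. MB21D1 (chromosome 6, 74123238 to 74161999, minus strand), which encodes cGAS, was at 0.0644, 0.0209 and 0 FPKM there, against 9.29, 9.50 and 9.35 in the shSETD2 libraries (adjusted p = 4.29e-08). IFI16, a nuclear DNA-binding protein of the HIN-200 family, was at 0.0204, 0.0150 and 0.0196 FPKM against 3.61, 3.74 and 4.36 (log2 fold change 2.26, standard error 0.073, adjusted p = 6.03e-07). Near 0 the pseudocount sets the size of a log2 fold change, which for IFI16 was 5.08 with a pseudocount of 0.1 in place of 1. TLR3, the endosomal RNA receptor, was at 0.0656, 0.0546 and 0.0377 FPKM against 0.735, 1.03 and 0.938 and was not tested in the main comparison. Of the sensors only DDX58 had a control mean above 1 FPKM.

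The adaptor MAVS and the kinase TBK1 were expressed in both groups and were higher in the shSETD2 libraries. MAVS, the mitochondrial adaptor of RIG-I and MDA5 (chromosome 20, 3827446 to 3856770), had 13.6, 12.9 and 8.69 FPKM in the control and 21.9, 20.9 and 21.3 in the shSETD2 libraries (log2 fold change 0.83, standard error 0.15, adjusted p = 2.44e-03). Control library 3 lay apart from the other control libraries for this gene. TBK1, the kinase that phosphorylates IRF3, was at 6.06, 7.11 and 6.59 against 14.9, 17.1 and 14.2 FPKM, a 2.33-fold difference (log2 fold change 1.11, standard error 0.085, adjusted p = 3.09e-05). TMEM173, which encodes the adaptor of cGAS, is not listed, so the level of that step is not known in either group.

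All 6 transcription factor genes were higher in the shSETD2 libraries, as were 26.8% of all genes tested, over a wide range of sizes. Of these, IRF7 had a control mean below 0.5 FPKM and passed the filter only through the shSETD2 group. IRF1, itself an interferon-induced activator, differed most. Its level was 1.13, 1.08 and 1.08 FPKM in the control and 11.3, 11 and 11.7 in the shSETD2 libraries (chromosome 5, 131817301 to 131826490, log2 fold change 2.56, standard error 0.049, adjusted p = 7.98e-08). IRF7, which amplifies the type I interferon response, was at 0.503, 0.270 and 0.383 against 3.53, 2.92 and 3.46 FPKM (log2 fold change 1.63, adjusted p = 7.12e-06). IRF2, which competes with IRF1 for the same motif, was at 1.71, 2.65 and 2.07 against 6.66, 6.70 and 6.67 FPKM (log2 fold change 1.299, adjusted p = 4.93e-05).

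IRF3, the constitutive factor downstream of TBK1, hardly differed. It was at 5.28, 4.76 and 4.58 FPKM in the control and 5.92, 5.50 and 5.68 in the shSETD2 libraries (log2 fold change 0.19, standard error 0.063, adjusted p = 0.0288). The call was lost when any of 4 libraries was left out (control 2 or 3, shSETD2 1 or 3), with adjusted p-values from 0.0671 to 0.0872. STAT2 was at 7.20, 6.94 and 6.67 against 10.8, 11.1 and 11.2 FPKM (log2 fold change 0.60, standard error 0.046, adjusted p = 3.23e-05). IRF9, the DNA-binding partner of STAT2, was at 1.17, 0.864 and 1.31 against 2.10, 3.19 and 2.13 FPKM (log2 fold change 0.71, standard error 0.14, adjusted p = 3.90e-03), with shSETD2 library 2 above the other shSETD2 libraries. The locus of IRF9 lies within that of AL136295.5 on the same strand, and how reads were divided between them is not known.

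**Figure D2:**
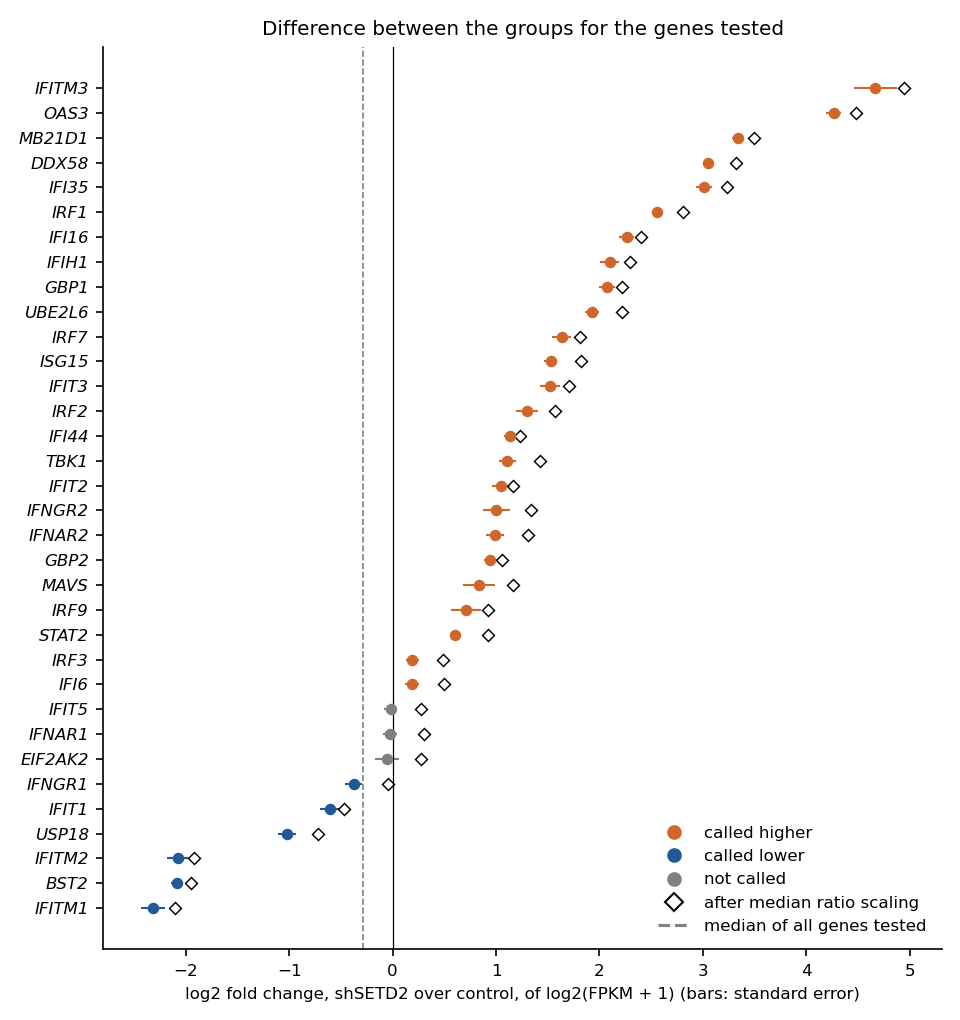
Log2 fold change of the 34 genes tested, shSETD2 over control on the log2(FPKM + 1) scale, with the standard error as a bar. Filled points are coloured by the call, open diamonds give the value after median ratio scaling, and the dashed line is the median of all genes tested at -0.29. IFITM3 at 4.67 and OAS3 at 4.26 lie at one end and IFITM1 at -2.31 at the other.

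The receptor chains were moderately abundant in both groups and did not move together. IFNAR1 and IFNAR2 form the receptor for type I interferon. IFNAR2 was at 7.94, 6.47 and 6.36 FPKM in the control and 14.7, 15.3 and 14.0 in the shSETD2 libraries, 2.12-fold higher (log2 fold change 0.99, standard error 0.087, adjusted p = 6.00e-05). IFNAR1 was at 12.5, 12.1 and 12.5 against 11.3, 13.4 and 11.8 FPKM, and the groups overlapped (log2 fold change -0.02, standard error 0.067, adjusted p = 0.761). With median ratio scaling IFNAR1 passed as higher, at 0.30 (adjusted p = 5.23e-03).

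The chains of the receptor for interferon gamma, IFNGR1 and IFNGR2, were called in opposite directions. IFNGR2 was at 12.5, 12.8 and 17.6 FPKM in the control and 30.9, 29.5 and 27.6 in the shSETD2 libraries (log2 fold change 1.00, standard error 0.13, adjusted p = 4.31e-04). IFNGR1 was at 15.8, 16.3 and 18.5 against 12.6, 14.0 and 11.7 FPKM and was lower (log2 fold change -0.38, standard error 0.083, adjusted p = 5.58e-03). That call was lost with median ratio scaling, where the value was -0.04 with an adjusted p of 0.639. IFNAR2, IFNAR1 and IFNGR2 lie within 249 kb of chromosome 21 (34602206 to 34851655). The locus of IFNAR2 overlaps that of AP000295.1 on the same strand.

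The 25 induced genes were divided in direction. Of the 18 tested, 11 were higher, 5 were lower and 2 did not pass, and 5 are not listed. That is 61.1% higher and 27.8% lower, against 26.8% and 51.8% of all genes tested. Of the 18, 6 had a mean below 0.5 FPKM in the control group and 4 in the shSETD2 group. These passed the filter only through the group where they are high. The 4 are BST2, IFITM1, IFITM2 and IFIT1, so among the lower genes only USP18 reached a mean of 0.5 FPKM in both groups. The summed level of the listed induced genes was 55.2 to 57.5 FPKM in the control and 153.6 to 186.7 in the shSETD2 libraries. IFITM3 alone made up 1.94% to 3.21% of this sum in the control and 32.4% to 44.4% in the shSETD2 libraries. Without IFITM3 the sums were 53.6 to 55.6 and 103.7 to 103.8 FPKM.

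To see what the promoters of these genes share, the ISRE core GAAANNGAAA was searched on either strand in RefSeq promoter windows of GRCh38.p14, from 250 bases before to 50 bases after the start of each gene. Windows were found for 31 of the 44 members. The motif was present in 16 of 19 windows of induced genes, 2 of 4 of sensors and 0 of 8 of the adaptor, kinase, transcription factor and receptor genes, against 3.57% of all 35116 windows. Among the induced genes it was found in 7 of 9 windows of genes that were higher, 3 of 3 of genes that were lower and 2 of 2 of genes that did not pass. The windows of IFI35 and UBE2L6, both higher, held no match, and IFITM2 and USP18, both lower, had no window. So the motif was found in windows of induced genes called in either direction, and no difference between the directions was tested. A match is a description of the sequence and says nothing of which factor binds there.

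The following stretches lie wholly upstream of the start, are written 5′ to 3′ along the strand of the gene, and show each match to the motif or its reverse complement TTTCNNTTTC in capitals, with overlapping matches as a single run. Further matches that lie outside these stretches or run into the start are not shown, namely 1 each for OAS3 (from base -12), IFITM1 (from -6) and IFIT5 (from -4, cut at the end of its stretch), counted from the start. They are shown because genes side by side on a chromosome, or sharing the motif, differed in direction. The IFIT genes of chromosome 10 come first, then a pair of IFITM genes of chromosome 11, and then genes from other chromosomes.

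IFIT3, higher, chr10:89327829-89327896, plus strand: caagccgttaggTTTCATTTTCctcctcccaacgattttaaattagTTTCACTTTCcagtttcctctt

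IFIT1, lower, chr10:89392495-89392541, plus strand: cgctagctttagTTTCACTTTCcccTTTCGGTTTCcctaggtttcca

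IFIT5, not passing, chr10:89414511-89414567, plus strand: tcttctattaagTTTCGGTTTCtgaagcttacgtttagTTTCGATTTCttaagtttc

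IFITM1, lower, chr11:313988-314021, plus strand: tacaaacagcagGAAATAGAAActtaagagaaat

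IFITM3, higher, chr11:320874-320924, minus strand: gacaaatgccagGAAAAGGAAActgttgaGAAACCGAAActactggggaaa

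BST2, lower, chr19:17405733-17405772, minus strand: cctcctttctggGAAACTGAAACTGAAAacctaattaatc

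ISG15, higher, chr1:1013372-1013411, plus strand: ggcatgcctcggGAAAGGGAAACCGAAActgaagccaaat

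OAS3, higher, chr12:112938319-112938352, plus strand: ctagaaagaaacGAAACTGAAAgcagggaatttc

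GBP1, higher, chr1:89065314-89065347, minus strand: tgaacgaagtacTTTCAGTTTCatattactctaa

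The IFIT genes encode RNA-binding proteins that block translation of viral RNA, and 4 of them lie within 137 kb of chromosome 10 in the order IFIT2, IFIT3, IFIT1, IFIT5 (91043451 to 91180758, GRCh37). IFIT2 was at 0.0186, 0.149 and 0.115 FPKM in the control and 1.11, 1.46 and 1.23 in the shSETD2 libraries (log2 fold change 1.05, standard error 0.083, adjusted p = 3.70e-05). IFIT3 was at 0.330, 0.344 and 0.573 against 2.70, 3.29 and 3.20 FPKM (log2 fold change 1.52, standard error 0.096, adjusted p = 1.22e-05). Both were higher with no overlap between groups, as were 27.9% of all genes tested.

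The next gene along, IFIT1, went the other way. It was at 0.982, 0.874 and 1.31 FPKM in the control and 0.260, 0.352 and 0.416 in the shSETD2 libraries (log2 fold change -0.61, standard error 0.095, adjusted p = 1.08e-03). With quantile normalization the difference shrank to -0.07 with an adjusted p of 0.565. IFIT5 was at 5.24, 4.62 and 5.17 against 4.95, 5.11 and 4.71 FPKM (log2 fold change -0.02, adjusted p = 0.784), and passed as higher with median ratio scaling at 0.28 (adjusted p = 6.00e-03). IFIT5 was the most abundant of the 4 in both groups. The loci of IFIT1, IFIT2 and IFIT3 lie within that of LIPA on the opposite strand, which was at a mean of 13.3 FPKM in the control and 17.4 in the shSETD2 group.

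IFITM1, IFITM2 and IFITM3 encode small membrane proteins that hinder the entry of enveloped viruses, and lie within 19.9 kb of chromosome 11 (307631 to 327537). IFITM3 was at 1.09, 1.84 and 1.55 FPKM in the control and 57.8, 49.8 and 82.9 in the shSETD2 libraries (log2 fold change 4.67, standard error 0.20, adjusted p = 2.33e-06). It had the largest log2 fold change of the 34 genes tested, and shSETD2 library 3 lay above the other shSETD2 libraries. IFITM1 was at 6.41, 6.05 and 6.10 against 0.234, 0.453 and 0.680 FPKM (log2 fold change -2.31, standard error 0.12, adjusted p = 4.05e-06). IFITM2 was at 3.38, 3.19 and 4.38 against 0.138, 0.0752 and 0.0660 FPKM (log2 fold change -2.08, standard error 0.10, adjusted p = 4.23e-06).

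Thus the control libraries held mostly IFITM1 and IFITM2, and the shSETD2 libraries almost only IFITM3. These genes are close paralogs and the locus of IFITM1 lies inside that of IFITM2 on the same strand, so the division of shared reads between them is uncertain. The locus of IFITM3 also overlaps the lincRNA AC136475.7 on the same strand.

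**Figure D3:**
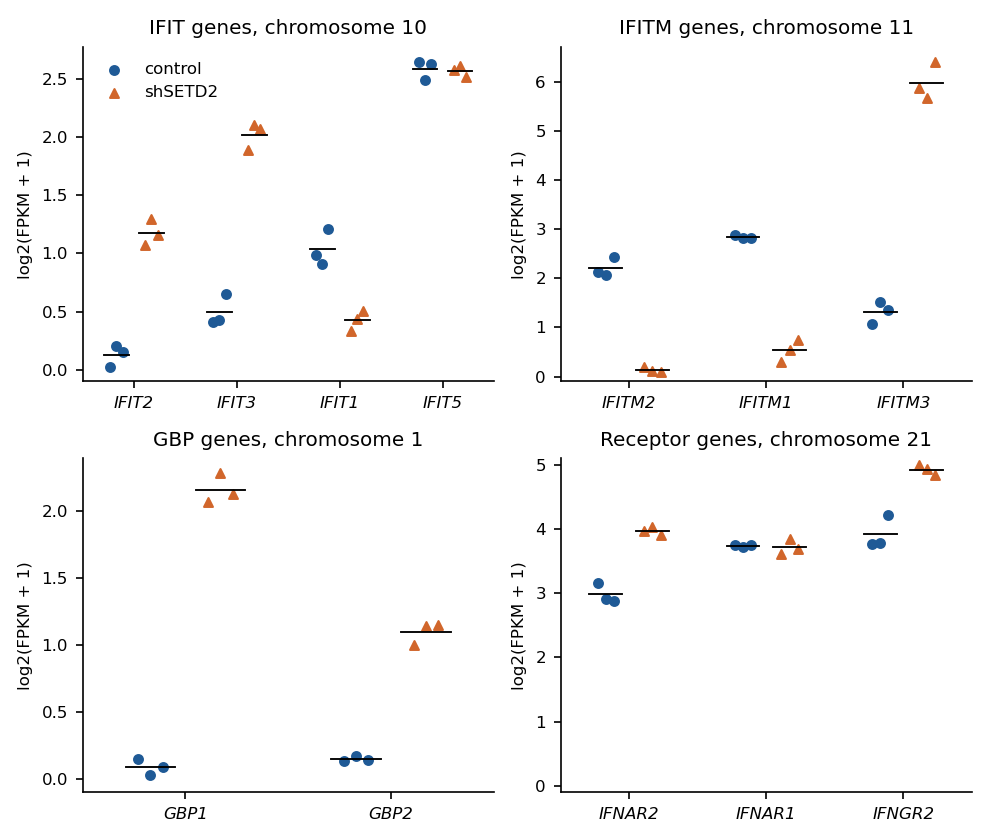
Genes that lie close together on 4 chromosomes, in genome order from left to right, with log2(FPKM + 1) in each library and a bar at the group mean. On chromosome 21 another gene, IL10RB, lies between IFNAR2 and IFNAR1 and is not drawn. Circles are control and triangles shSETD2 libraries. IFIT1 is lower in the shSETD2 libraries while IFIT2 and IFIT3 are higher, and IFITM3 is higher while IFITM1 and IFITM2 are lower.

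The oligoadenylate synthetases make a second messenger when they bind RNA duplexes. OAS3 (chromosome 12, 113376157 to 113411054) was at 0.454, 0.282 and 0.509 FPKM in the control and 26.6, 25.3 and 26.6 in the shSETD2 libraries, a 63.0-fold difference of means (log2 fold change 4.26, standard error 0.074, adjusted p = 5.58e-08). Its neighbour OAS1 was at 0, 0.0372 and 0 against 0.540, 0.666 and 0.650 FPKM, below the filter. OAS3 thus stood far above OAS1 in the shSETD2 libraries on the FPKM scale, which accounts for length.

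ISG15 is a ubiquitin-like protein, UBE2L6 the enzyme that conjugates it and USP18 the protease that removes it. ISG15 was at 3.01, 3.24 and 2.94 FPKM in the control and 10.6, 10.2 and 11.4 in the shSETD2 libraries (log2 fold change 1.53, standard error 0.059, adjusted p = 1.36e-06). UBE2L6 was at 2.69, 3.29 and 3.04 against 14.5, 14.1 and 14.0 FPKM (log2 fold change 1.93, standard error 0.066, adjusted p = 8.20e-07). USP18, which also restrains signalling at IFNAR2, fell from 8.59, 9.39 and 7.36 to 3.74, 3.60 and 3.59 FPKM (log2 fold change -1.02, standard error 0.086, adjusted p = 4.90e-05). Thus ISG15 and its conjugating enzyme were higher, while the protease was lower. The groups did not overlap for any of the 3. Of all genes tested, 27.9% had every shSETD2 library above every control library and 53.0% the reverse.

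BST2, or tetherin, which holds budding virions at the cell surface, had 3.38, 3.36 and 3.02 FPKM in the control libraries and is listed at 0 in every shSETD2 library (chromosome 19, 17513748 to 17516457, adjusted p = 3.64e-07). No fold change is given against a group listed at 0. It was the only listed member at 0 in all libraries of a group.

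The guanylate-binding proteins GBP1 and GBP2 are GTPases induced most strongly by interferon gamma. GBP1 was at 0.108, 0.0184 and 0.0647 FPKM in the control and 3.20, 3.87 and 3.37 in the shSETD2 libraries (log2 fold change 2.07, standard error 0.077, adjusted p = 1.10e-06). GBP2 was at 0.1001, 0.126 and 0.106 against 1.00, 1.20 and 1.22 FPKM (log2 fold change 0.95, standard error 0.063, adjusted p = 1.60e-05). Both moved from near 0 to low levels, and they lie within 98.1 kb of chromosome 1.

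Among the remaining induced genes, IFI35, which encodes a leucine zipper protein, rose from 0.734, 0.471 and 0.618 to 12.2, 11.2 and 12.4 FPKM (log2 fold change 3.01, standard error 0.079, adjusted p = 2.59e-07). IFI44 was at 0.0693, 0 and 0 against 1.17, 1.31 and 1.26 FPKM (adjusted p = 5.38e-06). ISG20, an exonuclease, was at 0.417, 0.1699 and 0.17 against 0.762, 0.6001 and 0.651 FPKM and was below the filter. None of these had overlapping groups, and every shSETD2 library was above every control library, as for 27.9% of all genes tested.

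IFI6, a small mitochondrial protein, and EIF2AK2 were expressed in every library, with small differences. IFI6 was at 7.51, 6.66 and 7.46 FPKM in the control and 8.78, 7.72 and 8.48 in the shSETD2 libraries (log2 fold change 0.19, standard error 0.069, adjusted p = 0.0446). Its call was lost with an ordinary linear model per gene (adjusted p = 0.0734) and when any library but shSETD2 library 2 was left out (0.0571 to 0.130). EIF2AK2, which encodes the RNA-dependent kinase PKR, was at 11.8, 13.3 and 10.7 against 11.2, 13.2 and 10.02 FPKM (log2 fold change -0.05, standard error 0.12, adjusted p = 0.694), and with median ratio scaling the sign turned, at 0.27 (adjusted p = 0.0634).

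The order of levels differed between the groups. In the control group the 5 members with the highest mean FPKM were IFNGR1 (16.9 ± 1.42, SD, n = 3), IFNGR2 (14.3 ± 2.88), IFNAR1 (12.3 ± 0.219), EIF2AK2 (11.9 ± 1.34) and MAVS (11.7 ± 2.67). Their ranges over libraries overlap from each gene to the next, apart from IFNGR2 and IFNAR1, for which the lowest library of IFNGR2 lay just above the highest of IFNAR1. In the shSETD2 group they were IFITM3 (63.5 ± 17.3), IFNGR2 (29.3 ± 1.70), OAS3 (26.1 ± 0.751), MAVS (21.4 ± 0.517) and DDX58 (19.4 ± 0.580). Here no neighbours in the order overlapped. Of the 37 listed genes, 19 had a mean of at least 1 FPKM in both groups, 11 only in the shSETD2 group and 4 only in the control group.

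**Figure D4:**
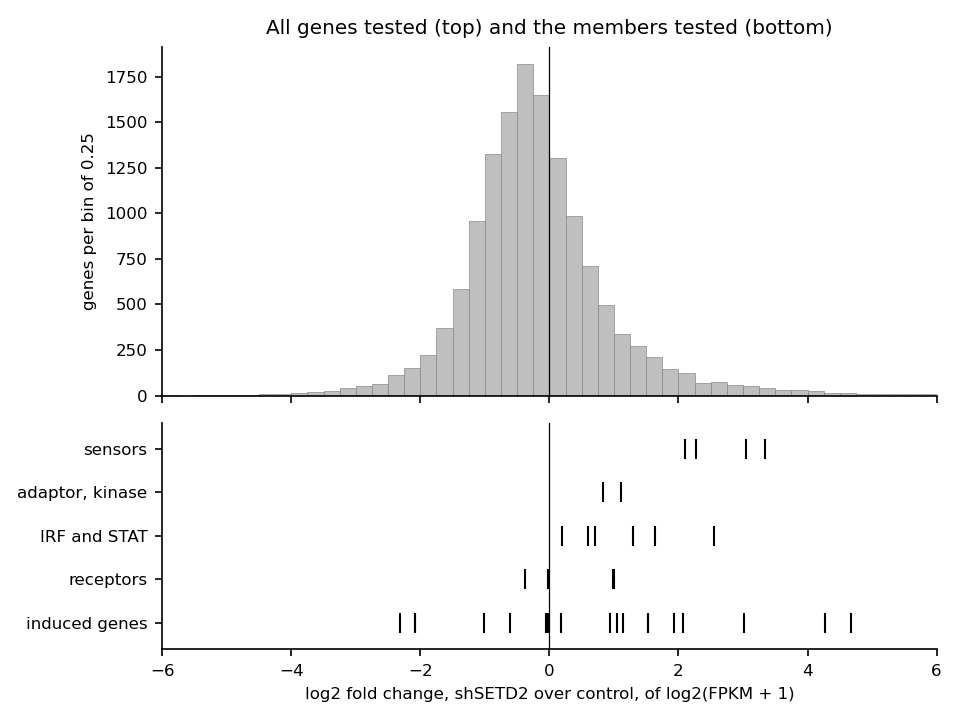
Log2 fold changes of all 14068 genes tested as a histogram (39 lie outside the range drawn) and of the 34 members tested as ticks by role, both shSETD2 over control on the log2(FPKM + 1) scale. The histogram is centred at -0.29, and the sensors, adaptor and kinase and IRF and STAT genes all lie to the right of 0.

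Other genes of the pathway were read from a list of 73, written by role. Of these 46 are listed and 44 were tested, of which 26 were higher, 12 lower and 6 neither, or 59.1% higher and 27.3% lower, with a median log2 fold change of 0.74. Over all genes tested 26.8% were higher and 51.8% lower, with a median of -0.29, and the counts by role that follow are to be read beside these shares. None of 10 interferon genes, types I, II and III, is listed. Of the 44 genes of this list that were tested, 8 had a mean below 0.5 FPKM in the control group and 1 in the shSETD2 group. These passed the filter only through the group where they are high, so their direction was not open. Among the 18 listed of 30 further induced genes, 14 were higher and 2 lower. Of these 18, 7 had a control mean below 0.5 FPKM, with PARP14, GBP3 and SP100 among them. PARP14, an ADP-ribosyltransferase, is listed at 0 in every control library and was at 9.07, 10.2 and 7.73 FPKM in the shSETD2 libraries. GBP3 was at 0, 0 and 0.0240 against 7.57, 6.61 and 6.37 FPKM, and SP100, a nuclear body protein, at 0.00457, 0.0575 and 0 against 4.62, 4.56 and 4.43. LGALS3BP, a secreted glycoprotein, was lower, at a mean of 6.67 against 2.84 FPKM (log2 fold change -1.02, adjusted p = 5.05e-04).

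Of 8 further sensing genes tested, 5 were higher and 2 lower. The 2 lower genes were TRAF6 (log2 fold change -0.44, adjusted p = 4.29e-03) and RNF135 (-0.31, adjusted p = 1.98e-03). TICAM1, which encodes TRIF, the adaptor of TLR3, was at 1.48, 1.69 and 1.56 FPKM in the control and 16.4, 16.3 and 17.3 in the shSETD2 libraries (log2 fold change 2.78, standard error 0.055, adjusted p = 8.74e-08). IKBKE, a kinase related to TBK1, was at 0.380, 0.416 and 0.532 against 5.01, 4.43 and 4.42 FPKM (log2 fold change 1.96, adjusted p = 1.11e-06). Its control mean was 0.443 FPKM, so IKBKE passed the filter only through the shSETD2 group and its direction was not open. MYD88, the adaptor of most Toll-like receptors, was at 0.579, 1.23 and 0.973 against 9.08, 8.39 and 3.89 FPKM (log2 fold change 2.02, adjusted p = 7.55e-04), with shSETD2 library 3 below the other shSETD2 libraries. IFNLR1, the specific chain of the interferon lambda receptor, has a receptor role in the list and is not among these 8 sensing genes. Its level was lower, at 2.83, 2.96 and 2.72 against 1.01, 0.836 and 1.04 FPKM (log2 fold change -0.97, adjusted p = 1.70e-05).

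Of 7 genes for enzymes that edit or clear nucleic acids, 2 were higher and 4 lower, where 26.8% and 51.8% of all genes tested were. SAMHD1, which breaks down deoxynucleotides, was higher at a mean of 13.3 against 25.3 FPKM (log2 fold change 0.87, adjusted p = 4.03e-06), and ADAR, which edits adenosine in RNA duplexes, at 36.4 against 46.1 (log2 fold change 0.33, adjusted p = 1.23e-04). The call of ADAR was lost with quantile normalization (0.07, adjusted p = 0.112). All 3 subunits of RNase H2, which removes RNA from hybrids with DNA, were lower. RNASEH2A was at 32.9, 34.2 and 33.4 FPKM in the control and 7.92, 7.56 and 7.89 in the shSETD2 libraries (log2 fold change -1.97, standard error 0.040, adjusted p = 9.64e-08). RNASEH2B and RNASEH2C had log2 fold changes of -0.93 and -1.14 (adjusted p = 1.14e-05 and 7.82e-05).

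Of 5 negative regulators tested, 3 were higher and 2 lower. TNFAIP3, a ubiquitin-editing enzyme that restrains NF-κB, rose from 2.14, 1.65 and 2.11 to 33.8, 34.0 and 35.7 FPKM (log2 fold change 3.58, adjusted p = 1.19e-07). SOCS3, an inhibitor of JAK kinases, was at 0.738, 0.910 and 1.03 against 7.55, 7.27 and 8.49 FPKM (log2 fold change 2.21, adjusted p = 1.31e-06). PIAS1, a SUMO ligase that restrains interferon signalling, was lower, at a mean of 6.46 against 2.98 FPKM (log2 fold change -0.91, adjusted p = 1.00e-04).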

How the data were processed

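RNA of 3 control and 3 shSETD2 libraries of H1650 was sequenced after stranded library preparation. The authors mapped reads to hg19 (GRCh37) with HISAT2, quantified genes with Ballgown and deposited FPKM per gene and library. Versions, use of strand and the filter behind the listed genes are not given in the sources used here. A further deposited table of the authors' own comparison (fold changes, p-values) was not used. No common step was found among low FPKM values, so depth and counting error are unknown.

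A gene entered the test when its mean over the libraries reached 0.5 FPKM, on log2(FPKM + 1) with limma 3.58.1 in R 4.3.3 (lmFit, eBayes with intensity trend, 2 groups, Benjamini-Hochberg over all 14068 genes tested, threshold 0.05). Fold changes on this scale understate those of low genes. The fit was run on simulated data in which few genes differed, unlike these data, so that run does not show how the fit performs here. Alternatives were a pseudocount of 0.1, no filter or a mean of at least 5, median ratio and quantile scaling, no trend, an ordinary linear model, the replicate number as a block, and each library left out.

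The members and lists were chosen with earlier results of these data known. All 44 members are named, and of the other pathway genes mainly the 6 with the largest and the 6 with the smallest log2 fold change among those called without overlap. IKBKE, MYD88, SAMHD1 and ADAR were added after their values were seen, SETD2 is named as context, some genes of that list are not reported here, and the printed promoter stretches were chosen after the values were seen. Promoters are from RefSeq. Python 3.11.15, pandas 2.3.3 and matplotlib 3.10.9 made tables and figures.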

Additional observations from a re-analysis of the deposited data

How the results depend on the processing

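Of the 34 members tested, 27 kept their direction and their side of the threshold in each of the 14 alternatives that gave a value; the others were IRF3, IFNAR1, IFNGR1, IFIT1, IFIT5, IFI6 and EIF2AK2, and for them the cause was not tested. The count of members higher was 23 to 25 and of members lower 6 when each library was left out in turn. With a mean of at least 5 FPKM required, only 7078 genes were tested, and 14 members were higher and 2 lower, with 9 and 3 of the other pathway genes and 2401 and 3246 of all genes. Median ratio scaling gave 28 members higher and 5 lower, counting a member below the main filter. Of all genes it gave 5338 higher and 5272 lower, against 3774 and 7283 without it.

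The sign of the log2 fold change turned for 3 genes that had not passed. With median ratio scaling it was 0.30 for IFNAR1, 0.28 for IFIT5 and 0.27 for EIF2AK2, and with quantile normalization 0.15 for IFIT5. With each library left out it lay between -0.089 and 0.0255 for IFNAR1, between -0.0672 and 0.0084 for IFIT5, and between -0.1508 and 0.0343 for EIF2AK2.

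Libraries with the same replicate number did not deviate together (r = -0.024, 0.018 and -0.008 over genes), so the numbers give no pairing. With the replicate number as a block, 25 members were higher and 6 lower, as without it, and 3733 of all genes were higher and 7243 lower, while SETD2 passed as lower (-0.58, adjusted p = 0.0157). Depth is unknown, so what counting error limits at low FPKM could not be given, and 3 libraries a group, of unstated origin, limit every comparison.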
